A study of Saccharomyces cerevisiae with 5 samples.

Results

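The molecules described here were single chromatin rings of the late, inefficient (LI) yeast origins ARS313 and ARS316, sorted read by read into those with an open and those with a closed nucleosome-free region (NFR). The NFR took ring positions 541 to 630 at ARS313 and 601 to 720 at ARS316, counted from the first base of the deposited tables and not as chromosomal coordinates. For each read, the share of NFR bases called methylated was divided by the mean share over all reads of an in vitro nucleosomal array, a spike-in of the same library and strand. A read below 1 on this scale was closed, a read at 2 or more was open, and reads between these borders were left out. The rule gave 10047 reads, 6828 open and 3219 closed, of the 12695 reads of the LI origins and of 43459 reads in the whole series. A further 2648 LI reads lay between the borders. At ARS313 3930 reads were open, 1915 closed and 1380 between, and at ARS316 2898 were open, 1304 closed and 1268 between.

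Replication origins of budding yeast are short AT-rich elements bound by the origin recognition complex (ORC), which marks each origin and helps to load the replicative helicase in G1. The NFR is the stretch around this element that usually holds no nucleosome, and it is flanked by regularly spaced nucleosomes. Origins differ in when they fire during S phase and in how many cells of a population use them, and LI origins fire late and in few cells. Isw2 is the motor of a remodeler that slides and spaces nucleosomes. Ies6 belongs to another remodeling complex, INO80.

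The study (MATAC-seq) cut single origins out of the chromosome as small chromatin rings and methylated their accessible bases with EcoGII, M.CviPI and M.SssI, so that a call marks a base that was reachable on that molecule. Nanopore sequencing then read each molecule whole, and a base appears as called (1) or not called (0). The 5 libraries were wildtype replicate 2, isw2Δ replicates 1 and 2 and ies6Δ replicates 1 and 2. Another wildtype library was not analysed here. All strains were MATa, ura3Δ0, leu2Δ0, his3Δ1, met15Δ0 and bar1::kanMX4, with recombination and LexA sites beside the origin, a LexA-TAP protein under pTEF2 and the recombinase under pGAL1-10. The mutants also carried isw2Δ::ura3 or ies6Δ::his. All cells were arrested in G1 with alpha-factor and given 2% galactose to excise the rings, and each library pooled 4 strains, 1 for each of ARS305, ARS313, ARS315 and ARS316. The study describes its replicates as biological, and the labels give only their numbers. The p-values measure the spread between these libraries.

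ARS313 had 985 reads in the wildtype library and 1560 in each mutant library. ARS316 had 1599 wildtype reads and 1560 in each isw2Δ library, but 575 in ies6Δ replicate 2 and only 176 in ies6Δ replicate 1, so that this last library carried the least precise ARS316 values. Many tables held exactly 780 reads per strand, so the number of reads does not count the molecules sequenced. The array mean, which sets the unit, ran from 3.23% to 6.17% of bases called and was lowest in the wildtype library. No pattern of calls at the LI origins was found in more than 1 library.

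The molecules were chosen by their NFR level alone, so NFR levels and class shares are a description with no test. At ARS313 the closed class held 53.3% of the wildtype reads (Wilson 95% interval 50.2% to 56.4%) and 18.01% and 26.4% of the isw2Δ reads and 20.8% and 23.8% of the ies6Δ reads. The open class of ARS313 held 25.8% of the wildtype reads, 64.4% and 54.9% of the isw2Δ reads, and 58.1% and 58.2% of the ies6Δ reads. The wildtype library stood alone here, with closed molecules the larger class in it and open molecules the larger class in the 4 mutant libraries. At ARS316 the closed class held 32.9% of the wildtype reads (30.6% to 35.2%), 17.7% and 19.4% of the isw2Δ reads, and 26.7% and 26.4% of the ies6Δ reads. The open class of ARS316 held 36.7% of the wildtype reads, 61.6% and 60.5% of the isw2Δ reads, and 52.3% and 54.6% of the ies6Δ reads. The interval of the closed share in ies6Δ replicate 1 was wide, 20.7% to 33.7%, with 176 reads. These intervals cover counting error only. They do not measure the spread between libraries, so they do not compare genotypes.

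The borders lay in a continuous distribution, without a gap between the classes. The highest closed read of a library and strand had an NFR level of 0.689 to 0.986 at ARS313 and 0.775 to 0.987 at ARS316, and the lowest read between the borders had 1.03 to 1.23 and 1.03 to 1.15. The highest read between the borders had 1.72 to 1.98 at ARS313 and 1.78 to 1.97 at ARS316, and the lowest open read had 2.01 to 2.22 and 2.01 to 2.14. These levels move in steps of 1 call, because the NFR of ARS313 held 42 callable columns on the forward and 48 on the reverse strand, and that of ARS316 held 66 and 54. A column is callable where at least 1 read of the strand was called.

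**Figure D1:**
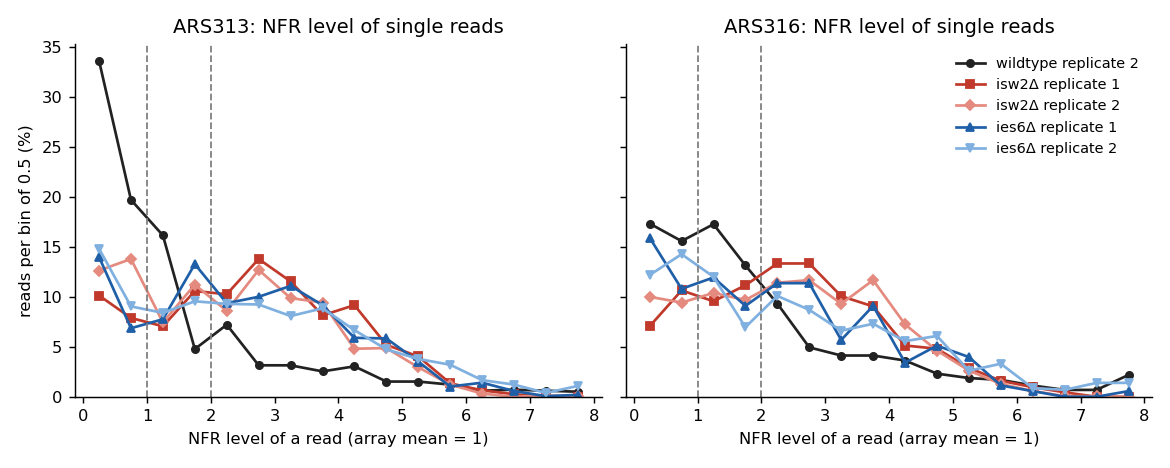
Distribution of the NFR level of single reads (mean call over the NFR columns divided by the array mean) for each library at ARS313 and ARS316, as percent of reads per bin, with the last bin holding all higher levels and dashed lines at the borders 1 and 2. The wildtype library of ARS313 has 53.3% of its reads below 1, against 18.01% to 26.4% in the mutant libraries, and no library shows a gap at either border.

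Outside the NFR, on columns that the rule did not use, open molecules were more methylated than closed molecules in all 5 libraries at both origins. At ARS313 the level of closed reads over all outside columns, in units of the array mean, was 0.832 in wildtype, 0.821 and 0.954 for the isw2Δ pair, and 0.926 and 0.865 for the ies6Δ pair. The level of open reads was 1.56 in wildtype, 1.37 and 1.46 for the isw2Δ pair, and 1.39 and 1.24 for the ies6Δ pair. The 2 classes did not overlap across libraries, and the reads between the borders lay between them in each library, at 0.970 to 1.12. At ARS316 closed reads had 0.700 in wildtype, 0.866 and 0.953 for the isw2Δ pair, and 0.794 and 1.01 for the ies6Δ pair. Open reads of ARS316 had 1.58 in wildtype, 1.56 and 1.59 for the isw2Δ pair, and 1.67 and 1.60 for the ies6Δ pair. Open levels of ARS316 spanned 1.56 to 1.67, while its closed levels were spread more widely, from 0.700 in wildtype to 1.01 in ies6Δ replicate 2, again without overlap of the classes. The overlap of single reads was considerable, since 15.3% to 22.4% of the open reads of a library at ARS313 and 9.75% to 20.8% at ARS316 lay below the median of the closed reads.

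The log2 ratio of open over closed was 0.67 ± 0.15 (SD, n = 5 libraries) at ARS313, a 1.60-fold difference, and 0.90 ± 0.21 at ARS316, a 1.87-fold difference. The exact two-sided sign-flip permutation test over libraries gave p = 0.0625 for each, the smallest value that 5 libraries allow, and 0.075 after Benjamini-Hochberg adjustment over 12 such values. In this family 10 values, all with 1 sign in the 5 libraries, had this p, so no single value tested this way can pass 0.05. With the 150 columns on each side of the NFR left out, an alternative added after seeing the data, the log2 ratios were 0.50 and 0.76.

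The array showed a difference of similar size. When array reads were sorted by the same rule on array columns with the same numbers, the open class exceeded the closed class elsewhere on the molecule by 0.87 in wildtype, 0.89 and 0.75 for the isw2Δ pair, and 0.98 and 0.96 for the ies6Δ pair on the log2 scale, with a mean of 0.89 ± 0.09. The mean of the LI origins minus the array was 0.15 in wildtype, -0.09 and -0.07 for the isw2Δ pair, and -0.15 and -0.37 for the ies6Δ pair. The mean difference was -0.10 ± 0.19 (exact permutation p = 0.312, adjusted 0.341), with the LI origins above the array in 1 of 5 libraries. The mean excess of methylation on open molecules of ARS313 and ARS316 was thus no larger than that of a spike-in without an origin, and their difference was within the spread between libraries. The sign of this difference turned to 0.11 when the classes were the lowest and highest of 3 equal groups of reads and to 0.053 without rarely called columns. With 150 columns beside the NFR left out it was -0.22, below 0 in 5 of 5 libraries (exact permutation p = 0.0625), and with 60 columns at each ring end left out it was -0.0070. Without wildtype replicate 2 it was -0.17 and without ies6Δ replicate 2 it was -0.039.

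Origins that fire early and efficiently (EE), ARS305 and ARS315, were sorted by the same rule and had log2 ratios of 0.74 ± 0.29 and 0.51 ± 0.08 outside their NFRs. The LI mean exceeded the EE mean by 0.16 ± 0.07, with the LI mean higher in 5 of 5 libraries (exact permutation p = 0.0625, adjusted 0.075). Single origins did not separate in this way, since the mean of ARS313 was 0.67. ARS305 was above ARS313 in wildtype (1.14 against 0.90), isw2Δ replicate 2 and ies6Δ replicate 1. It was below ARS313 in isw2Δ replicate 1 and ies6Δ replicate 2. Naked plasmid, with a mean of 12.4% to 17.6% of bases called against 3.23% to 6.17% on the array, was sorted into 3 equal groups of reads instead. Plasmid columns with the same numbers as each NFR were used, which are not the same sequence. Its highest group exceeded its lowest by 0.23 ± 0.18 (log2, n = 5 libraries) with the numbers of ARS313 and 0.25 ± 0.24 with those of ARS316. LI reads sorted in the same way gave 0.73 and 0.97. In wildtype the plasmid had 1000 forward but only 52 reverse reads, and both strands counted equally. Without isw2Δ replicate 1, the library with the highest plasmid values, the plasmid had 0.15 and 0.14.

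**Figure D2:**
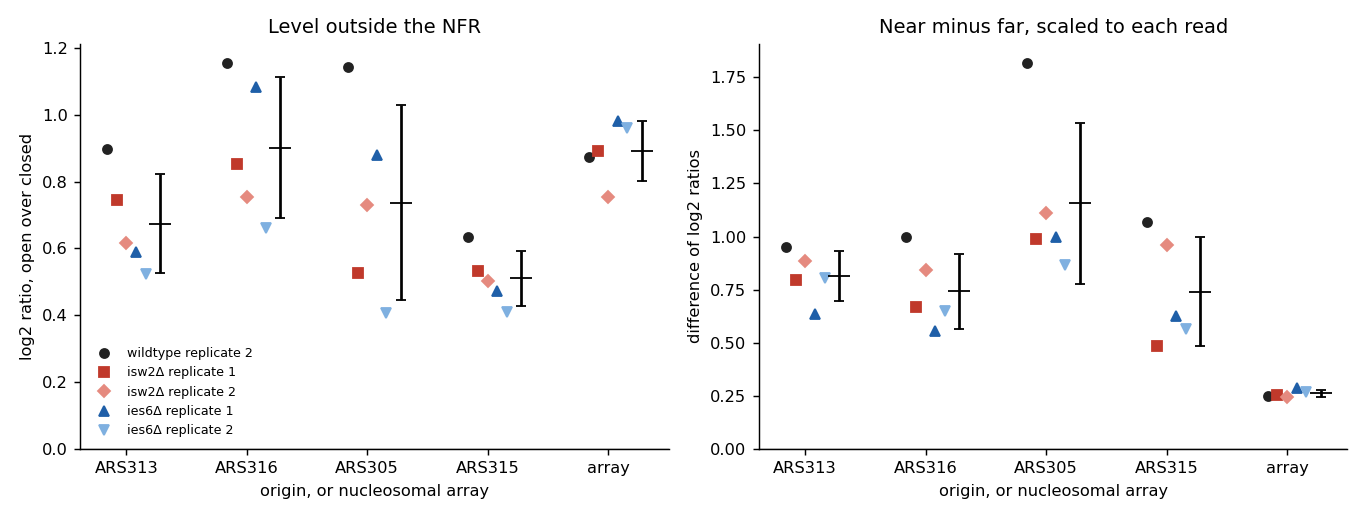
Log2 ratio of open over closed reads outside the NFR for ARS313, ARS316, the EE origins ARS305 and ARS315 and the nucleosomal array, with 1 point per library and bars for mean ± SD of the 5 libraries. The array mean of 0.89 lies at the level of ARS316 (0.90) and above that of ARS313 (0.67).

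Read in windows of 30 bp, open molecules had the higher normalized level almost everywhere. Of 68 complete windows outside the NFRs, 67 were higher in open reads (98.5%, limma adjusted p below 0.05) and 0 were lower. The exception was the first window of ARS313, positions 1 to 30 at the end of the linearised ring, with 3.31 in closed and 3.76 in open reads (log2 0.18, adjusted p = 0.13). That window was also the most methylated one outside the NFR in both classes. The size of the difference fell with distance from the NFR. At ARS313 the log2 ratio averaged 1.18 within 150 bp of an NFR edge, 0.71 from 150 to 300 bp and 0.41 beyond 300 bp, and at ARS316 it averaged 1.35, 1.001 and 0.63. When open and closed reads were compared within 3 equal groups of the read's own outside methylation, 23 windows were higher and 2 lower.

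**Figure D3:**
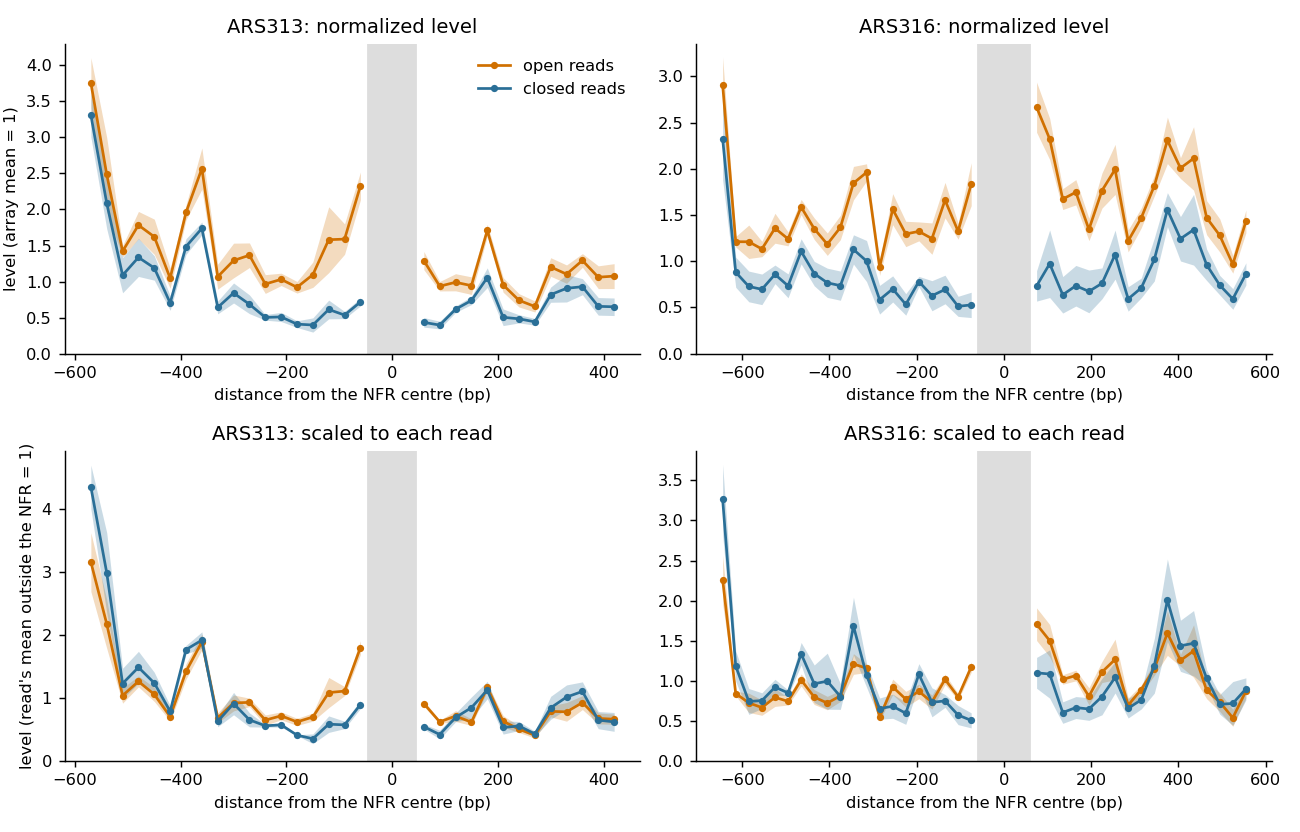
Methylation level of open and closed reads of ARS313 and ARS316 in 30-bp windows, against distance from the NFR centre in bp. The upper row shows the normalized level and the lower row the level scaled to each read. Lines give the mean and bands the SD of the 5 libraries, with the NFR in grey. On the normalized level, open reads lie above closed reads along nearly the whole ring, with the widest gap beside the NFR.

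To separate shape from overall methylation, each read was divided by its own mean outside the NFR. On this scale values are relative, so that some windows must fall when others rise. Of the 68 windows, 22 were higher in open reads (32.4%) and 20 were lower (29.4%). ARS313 had 10 higher and 9 lower of 31, and ARS316 had 12 higher and 11 lower of 37. The calls were sorted by distance. Within 150 bp of the NFR, 7 of 10 windows at ARS313 and 8 of 10 at ARS316 were higher and 1 of 10 at each was lower. From 150 to 300 bp, 3 of 10 at ARS313 and 4 of 10 at ARS316 were higher and 1 at each was lower. Beyond 300 bp none of the 11 windows at ARS313 or the 17 at ARS316 was higher, and 7 and 9 were lower. The median scaled log2 ratio of these 3 distance classes was 0.64, 0.07 and -0.22 at ARS313 and 0.49, 0.18 and -0.21 at ARS316. Windows of 1 library share its molecules, so these counts are not independent.

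The falls depended on the scaling. When reads were divided by their mean beyond 300 bp instead, a scaling added after seeing the data, 16 windows were higher, 14 of them among the 22, and 0 were lower by limma, with 6 lower at an unadjusted p under 0.05. Of the 20 lower windows, 12 still had a ratio below 0 on that scale. The count of lower windows was also 13 without isw2Δ replicate 2 and 13 without ies6Δ replicate 2.

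The largest rises of ARS313 lay on its − side, towards lower ring positions. In the window next to the NFR, 511 to 540, the normalized level of closed reads was 0.631 in wildtype, 0.751 and 0.75 for the isw2Δ pair, and 0.755 and 0.694 for the ies6Δ pair, and that of open reads was 2.52, then 2.39 and 2.48, then 2.18 and 2.07. The classes were far apart in each library, and this was a linker window, one of the 7 most methylated windows of ARS313 in reads between the borders. Its scaled log2 ratio was 0.99 (SE 0.08, adjusted p = 1.5e-05), with library values from 0.69 in ies6Δ replicate 1 to 1.15 in isw2Δ replicate 1. The window 481 to 510 rose by 0.93 on the scaled log2 scale (SE 0.07, adjusted p = 1.5e-05), from a normalized level of 0.53 to 1.59.

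The window 421 to 450 of ARS313 belonged instead to the 7 protected windows, the least methylated ones in reads between the borders. Its normalized level in closed reads was 0.331 in wildtype, 0.421 and 0.376 for the isw2Δ pair, and 0.553 and 0.301 for the ies6Δ pair, and in open reads it was 1.38, then 0.98 and 1.12, then 1.08 and 0.917. A stretch that was below the array mean on every closed average was thus near the array mean on open molecules. The scaled log2 ratio was 0.96 (SE 0.11, adjusted p = 0.00018), largest in wildtype at 1.29 and smallest in ies6Δ replicate 1 at 0.56. On the + side, towards higher positions, the window next to the NFR, 631 to 660, rose by 0.72 (SE 0.07, adjusted p = 2.8e-05), from a normalized level of 0.43 to 1.29, and the 5 libraries lay close together at 0.59 to 0.83.

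The largest falls of ARS313 on the scaled log2 scale were -0.47 at 1 to 30 and -0.45 at 31 to 60 (SE 0.07 and adjusted p = 0.00056 for each), both at the end of the ring, and -0.43 at 721 to 750 (SE 0.09, adjusted p = 0.0024). The last one lay only 90 bp from the NFR on the + side and was the 1 lower window within 150 bp. Its normalized level still went from 0.74 in closed to 0.94 in open reads, so it rose less than the rest of the molecule and did not lose methylation. None of these 3 falls was called when reads were scaled to their mean beyond 300 bp, where 721 to 750 had -0.23 (adjusted p = 0.082).

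At ARS316 the largest rise was in the window next to the NFR on the − side, 571 to 600, itself a protected window. Closed reads had a normalized level of 0.312 in wildtype, 0.486 and 0.646 for the isw2Δ pair, and 0.551 and 0.639 for the ies6Δ pair, and open reads had 1.57, then 1.73 and 1.77, then 2.18 and 1.91. The lowest open library lay above the highest closed one. The scaled log2 ratio was 1.19 (SE 0.10, adjusted p = 1.5e-05), with library values of 0.93 to 1.54. On the + side the windows 781 to 810 and 811 to 840 rose by 0.76 (SE 0.12, adjusted p = 0.00071) and 0.68 (SE 0.11, adjusted p = 0.00088), each with its largest value in wildtype, 1.30 and 1.23. Neither was called after scaling to the mean beyond 300 bp (adjusted p = 0.086 and 0.18).

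The window next to the ARS316 NFR on the + side, 721 to 750, had the widest gap in normalized level, from 0.517 in wildtype, 0.805 and 0.691 for the isw2Δ pair, and 0.685 and 0.961 for the ies6Δ pair on closed reads to 2.92, then 2.45 and 2.75, then 2.31 and 2.89 on open reads. Scaled to the read, its log2 ratio was 0.63 (SE 0.13, adjusted p = 0.0030) and the libraries disagreed, from 0.02 in ies6Δ replicate 1 to 1.13 in isw2Δ replicate 2. This call was lost on reverse reads alone (0.22, adjusted p = 0.24) and without columns called in under 5% of reads (0.36, adjusted p = 0.064). The largest falls of ARS316, -0.52 at 1 to 30 (SE 0.07, adjusted p = 0.00027), -0.47 at 31 to 60 (SE 0.09, adjusted p = 0.0017) and -0.45 in the window that ends at 330, 270 bp from the NFR (SE 0.09, adjusted p = 0.0024), were likewise not called after scaling beyond 300 bp.

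**Figure D4:**
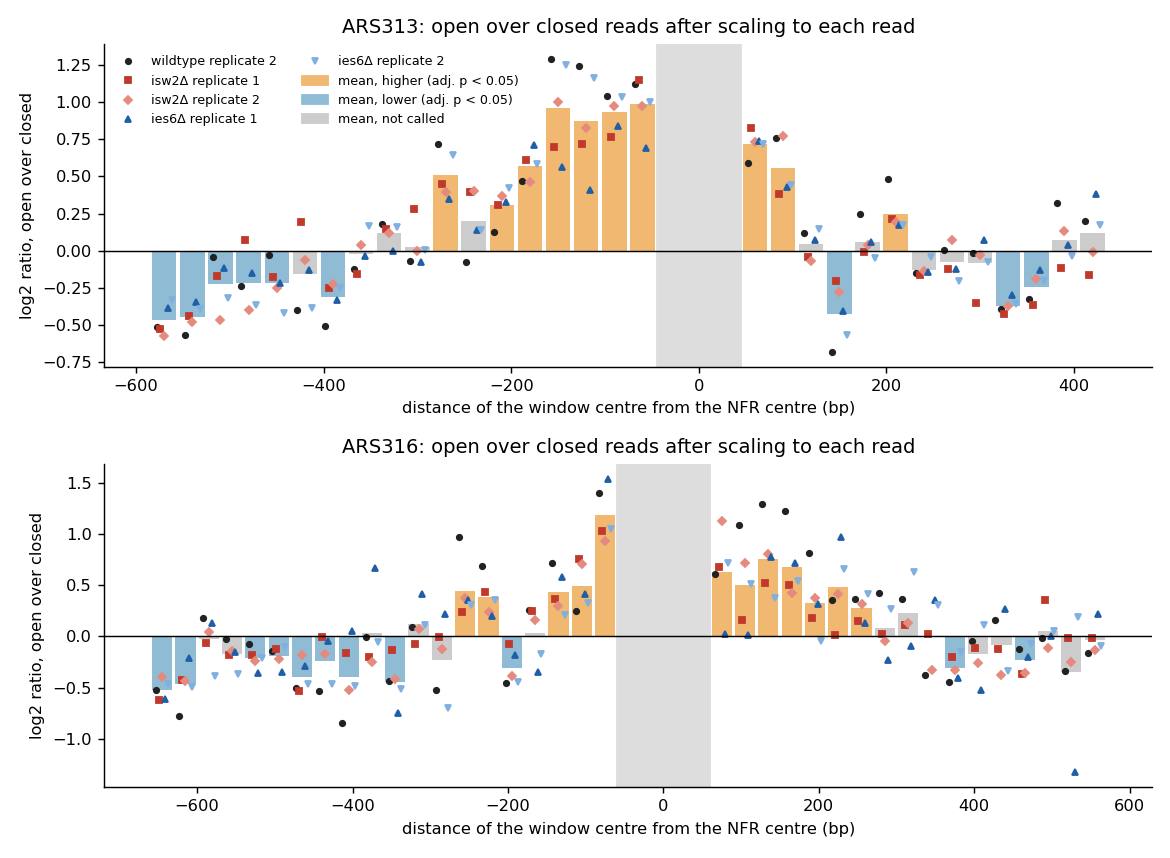
Log2 ratio of open over closed reads in 30-bp windows after division of each read by its own mean outside the NFR, against distance from the NFR centre in bp for ARS313 and ARS316, with the mean and the 5 libraries shown. Ratios are highest within 150 bp of the NFR (medians 0.64 and 0.49) and mostly below 0 beyond 300 bp (medians -0.22 and -0.21).

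The difference between near and far windows was measured in each library as the scaled log2 ratio within 150 bp minus that beyond 300 bp. At ARS313 it was 0.95 in wildtype, 0.80 and 0.89 for the isw2Δ pair, and 0.63 and 0.81 for the ies6Δ pair, with a mean of 0.81 ± 0.12. At ARS316 it was 0.997 in wildtype, 0.67 and 0.84 for the isw2Δ pair, and 0.55 and 0.65 for the ies6Δ pair, with a mean of 0.74 ± 0.18. Both were above 0 in 5 of 5 libraries (exact permutation p = 0.0625, adjusted 0.075), and without ies6Δ replicate 1 they were 0.86 and 0.79.

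The array had a much smaller gradient of this kind. Over all consecutive array stretches of the NFR's width, its median near minus far difference was 0.25 in each of the wildtype and isw2Δ libraries and 0.28 and 0.27 in ies6Δ. The LI mean exceeded it by 0.72 in wildtype, 0.48 and 0.62 for the isw2Δ pair, and 0.31 and 0.46 for the ies6Δ pair, a mean of 0.52 ± 0.16 (exact permutation p = 0.0625, a comparison added after seeing the data). Naked plasmid, sorted into 3 equal groups, had 0.11 ± 0.07 and 0.05 ± 0.04, against 0.71 and 0.76 for LI reads sorted in the same way. The gradient was not particular to the LI origins, since ARS305 had 1.16 ± 0.38 and ARS315 had 0.74 ± 0.26, without a test of that difference.

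The flanks were then compared within each origin, and no test was made between the origins. At ARS313 the near − flank carried a scaled log2 ratio of 0.94 ± 0.16 and the near + flank 0.16 ± 0.05. At ARS316 the near − flank had 0.34 ± 0.08 and the near + flank 0.57 ± 0.26, but the libraries disagreed. There the near + flank was higher in wildtype (0.95 against 0.36) and in replicate 2 of both mutants. It was lower in isw2Δ replicate 1 (0.40 against 0.44) and ies6Δ replicate 1 (0.30 against 0.35). Over the whole of each flank, however, the + minus − difference at ARS313 was 0.06 in wildtype, -0.14 and 0.04 for the isw2Δ pair, and 0.06 and -0.05 for the ies6Δ pair, without a common sign (exact permutation p = 0.938 for both raw and adjusted p). With 60 columns at each ring end left out it was -0.21 ± 0.08, lower on the + flank in 5 of 5 libraries (exact permutation p = 0.0625), so the whole-flank value of ARS313 depended on the ends of the ring. At ARS316 it was 0.37 in wildtype, 0.16 and 0.19 for the isw2Δ pair, and 0.08 and 0.41 for the ies6Δ pair, a mean of 0.24 ± 0.14 (exact permutation p = 0.0625, adjusted 0.075). It was 0.45 on forward reads and 0.033 on reverse reads alone, and 0.090 on reads with a call in both ends of the ring.

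The distance from the NFR edge to the first methylated base on a molecule also differed between open and closed reads. On the − side of ARS313 the library medians were 31 to 78 bp for closed reads and 4.5 to 12.5 bp for open reads, and on its + side 54.8 to 90 bp and 13 to 35.2 bp. On the − side of ARS316 they were 55.5 to 125 bp for closed reads and 12.5 to 29.5 bp for open reads, and on its + side 26 to 96 bp and 12 to 25 bp. Each library median given here is the mean of the forward and the reverse median. These means did not overlap between the 2 classes on any of these 4 edges. Medians of single strands did overlap across libraries, with closed reads from 16 bp and open reads up to 18 bp on the − edge of ARS313. On its + edge these were 22.5 and 55.5 bp, and on the + edge of ARS316 24 and 28 bp. On the − edge of ARS316 they stayed apart, at 50 and 45 bp. A call within 30 bp of the − edge of ARS313 was present on 34.6% to 53.9% of closed and 71.8% to 85.9% of open reads. The same share was 24.6% to 41.6% and 48.7% to 66.8% on its + edge. At ARS316 it was 14.3% to 39.8% of closed and 52.2% to 76.6% of open reads on the − edge, and 32.8% to 57.5% and 57.9% to 82.1% on the + edge. These medians and shares are not scaled to the methylation of the read.

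Open molecules had a flatter pattern of linkers and protected windows. Linker windows were the most and protected windows the least methylated ones outside the NFR, as ranked in reads between the borders, which belong to neither class. ARS313 had 7 of each, with levels of 1.30 to 3.51 in linkers and 0.477 to 0.660 in protected windows, and ARS316 had 9 of each, with 1.30 to 2.74 and 0.637 to 0.836. The log2 ratio of linker over protected windows was lower in open than in closed reads of ARS313, with differences of -0.85 in wildtype, -0.54 and -0.64 for the isw2Δ pair, and -0.43 and -0.61 for the ies6Δ pair, a mean of -0.61 ± 0.15. At ARS316 the difference was -0.37 in wildtype, -0.34 and -0.27 for the isw2Δ pair, and -0.34 and -0.11 for the ies6Δ pair, a mean of -0.29 ± 0.10. Both were below 0 in 5 of 5 libraries (exact permutation p = 0.0625, adjusted 0.075). Several protected windows lay within 150 bp of the NFR, 4 of 7 at ARS313 and 3 of 9 at ARS316. Of the linkers, 2 of 7 and 2 of 9 did. The linkers also included windows at the ring end, 1 to 30 and 31 to 60 at ARS313 and 1 to 30 at ARS316. This contrast was not measured on the array or at like methylation of the reads. With 150 columns on each side left out the means were -0.50 and -0.32. The ARS313 mean was -0.98 without columns called in under 5% of reads, and the ARS316 mean was -0.18 with classes from equal groups of NFR level.

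Long stretches without a call were less frequent on open molecules. A run of at least 150 columns without a call outside the NFR, about the length of DNA on 1 nucleosome, was present on 65.3% to 90.6% of closed and 32.4% to 63.9% of open reads of a library at ARS313. At ARS316 it was present on 72.1% to 92.4% of closed and 35.8% to 68.4% of open reads. The mean gap was -27.1 percentage points at ARS313 and -33.3 at ARS316, but a read with more calls has fewer long runs. Compared within 3 equal groups of that number, open reads of ARS313 had -7.59 points in wildtype, -6.09 and -6.37 for the isw2Δ pair, and -6.68 and -7.96 for the ies6Δ pair, a mean of -6.94 ± 0.80. At ARS316 the difference was -3.85 in wildtype, -9.32 and -15.8 for the isw2Δ pair, and -20.1 and -11.2 for the ies6Δ pair, a mean of -12.1 ± 6.21. Both had 1 sign in 5 of 5 libraries (exact permutation p = 0.0625, adjusted 0.075). In ies6Δ replicate 1 at ARS316, the group with most calls held 0 closed reads on the forward strand, so it was left out there. On the reverse strand this group held 3 closed reads, 66.7% of them with such a run, against 5.56% of its open reads. The value of this library thus rested on very few reads. In the isw2Δ libraries at ARS316, the group with most calls held 8 to 16 closed reads per strand. In wildtype at ARS316, 100% of reads in the group with fewest calls had such a run in both classes. Reads were not matched further within a group, so their numbers of calls may still differ between the classes. Without columns called in under 5% of reads the means were -1.61 and -4.19 points, and with 150 columns beside the NFR left out they were -4.55 and -7.58 points.

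The classes were the ends of a continuous trend. With reads in bins of NFR level, the outside level at ARS313 was 0.83 for reads below 0.5, 1.02 from 1 to 1.5, 1.20 from 2 to 3 and 1.72 from 4 up. At ARS316 the same bins had 0.80, 1.02, 1.28 and 2.04. The level of near over far windows also went up at ARS313, from 0.38 below 0.5 to 0.67 from 2 to 3 and 0.80 from 4 up. At ARS316 it was 0.73 below 0.5, 0.60 from 0.5 to 1, 1.01 from 2 to 3 and 1.27 from 4 up, with its lowest value in the second bin. Within each origin the ends of the outside-level trend lay well apart, and no step stood at the borders 1 or 2.

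**Figure D5:**
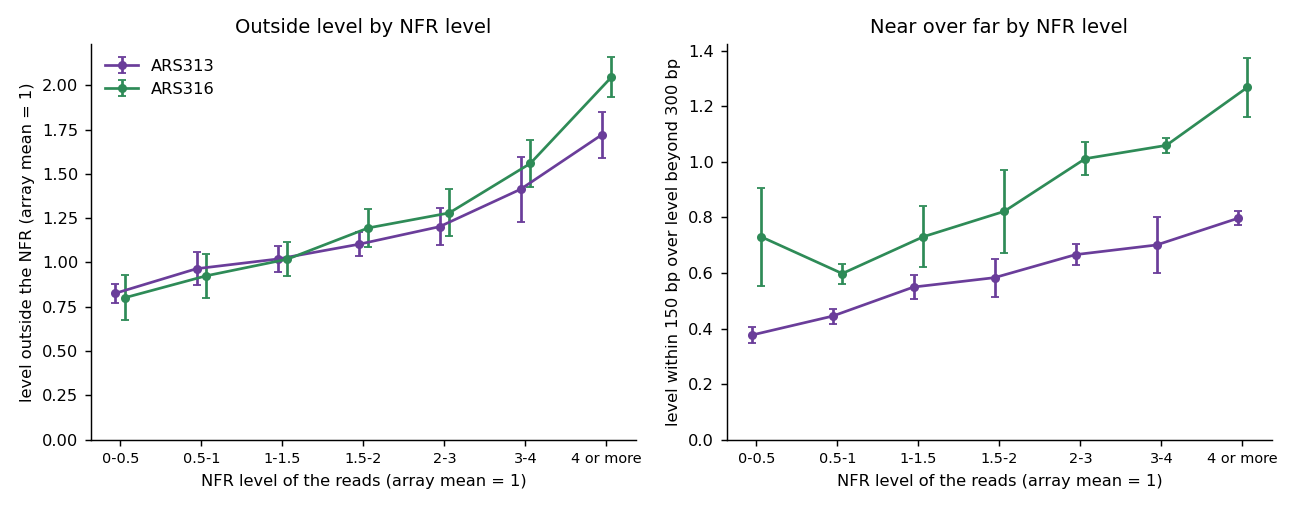
Outside level and near over far level of reads in 7 bins of NFR level at ARS313 and ARS316, as mean ± SD of the libraries. The outside level goes from 0.83 to 1.72 at ARS313 and from 0.80 to 2.04 at ARS316, with no step at the class borders.

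The contrast between open and closed molecules was then compared between genotypes on the scaled windows, with 1 wildtype library shared by both comparisons and 2 residual degrees of freedom. For isw2Δ against wildtype limma called 0 of 68 windows (smallest adjusted p = 0.236, 5 windows at an unadjusted p under 0.05), with log2 differences from -0.76 to 0.51 and a median of -0.05. For ies6Δ it called 0 of 68 (smallest adjusted p = 0.367, 6 at an unadjusted p under 0.05), with differences from -0.82 to 0.71 and a median of -0.05. The SE of a difference ran from 0.12 to 0.67 over windows, with a median of 0.17, and these counts do not show that the genotypes were alike. Without ies6Δ replicate 1 the counts were 4 for isw2Δ and 5 for ies6Δ, and without ies6Δ replicate 2 they were 4 and 13. These fits had 1 residual degree of freedom, with the spread taken from the isw2Δ pair alone, and the single ies6Δ library was assumed to vary like it. With all 5 libraries, the main setting thus called no window in either comparison. For ies6Δ, forward reads alone gave 4 windows and scaling class by class gave 1.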

How the data were processed

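The authors called m6A and CpG per base on each nanopore read, using Megalodon, guppy and minimap with build R64 named in their processing notes, made the scores binary with stringent thresholds and deposited 60 tables, 1 per library, locus and strand. Each deposited value is a fraction that is 0 or 1 for 1 base of 1 read, without normalization. In 3 tables the deposited values were separated by spaces, and 1 incomplete line was left out. Depth is the number of reads per table, and precision follows from it and from the number of callable bases.

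Reads were sorted as given above. Members and window lists were chosen with earlier results of these data known. Strands were averaged within a library, or added for windows. Log2 ratios of windows used a pseudocount of 0.05 on the sum of both strands and were fitted with limma 3.58.1 in R 4.3.3 over all 68 windows, and p-values were adjusted by Benjamini-Hochberg and called below 0.05. Single values were tested with the exact two-sided sign-flip permutation test over libraries in Python 3.11.15 with NumPy 2.4.6, pandas 2.3.3 and SciPy 1.17.1. Windows named are, per origin, the 3 largest rises and 3 largest falls among those called with 1 sign in all 5 libraries, plus the window on each side of the NFR. The scripts were tested on simulated data. Alternatives covered class borders, strand, spike-in, window size, pseudocount, scaling, column filters and libraries left out. No sequence is shown, since no genome was used here.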

Additional observations from a re-analysis of the deposited data

How the results depend on the processing

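Over 31 settings, 206 of 215 alternatives of the 12 single values kept their sign, and 9 turned it. The LI origins minus the array turned to 0.11 with equal groups of NFR level and to 0.053 without columns called in under 5% of reads. The + minus − flank of ARS313 was -0.21 with 60 columns at each ring end left out. It turned to 0.037 on reverse reads, 0.0088 with borders of 0.75 and 2.5, 0.074 with equal groups, 0.0018 with 30 columns beside the NFR left out and 0.036 without rarely called columns, and it ran from -0.020 to 0.029 when each library was left out. Windows higher on the normalized level numbered 130 of 136 with 15-bp windows and 23 of 68 within equal groups of read methylation, which also gave 2 lower. Scaled windows higher in open reads numbered 34 of 136 with 15-bp windows. Scaled windows lower in open reads numbered 12 on reverse reads, 12 with 30 columns beside the NFR left out, 0 after scaling beyond 300 bp, and 13 to 18 when each library was left out. Leaving out a library gave 0 to 4 windows for isw2Δ against wildtype and 0 to 13 for ies6Δ against wildtype, and the latter had 4 on forward reads and 1 with scaling class by class. Of 314 alternatives for the 14 named windows, 299 kept the call, 15 lost it and 0 reversed.

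With the replicate number as a block (replicate block), 66 windows were higher on the normalized level, 23 higher and 20 lower after scaling to the read, and 0 in each genotype comparison. The labels give only these numbers. The deviations of same-numbered mutant libraries correlated at 0.13 over 68 windows, and the block changed no count of calls by over 1.5 times. Whether same-numbered libraries were handled together was not tested. Depth limits the ARS316 values of ies6Δ replicate 1 most, with 176 reads.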

Other observations

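Reads without any call outside the NFR could not be scaled. There were 5 on the forward and 1 on the reverse strand of ARS316 in wildtype, and 1 on the forward strand of each of ARS313 and ARS316 in ies6Δ replicate 1. On the forward strand of ARS316 in wildtype, 3 reads had no call at all and 817 of 819 reads were distinct.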
